A study of Mus musculus with 8 samples.

Results

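The ephrin ligands were described in RNA sequencing libraries of cultured mouse neurons. The 8 members, Efna1, Efna2, Efna3, Efna4, Efna5, Efnb1, Efnb2 and Efnb3, were chosen as all mouse ephrin genes by symbol, and each was found as 1 of the 32726 rows of the count table. The design set 4 libraries of Nuak1 knockout neurons (KO) against 4 of wild-type neurons (WT), all collected after 5 days in vitro in a medium without serum. No other treatment is given. Nuak1 encodes an AMPK-related kinase, and the study describes a constitutive knockout whose homozygous animals die at birth, on a C57Bl/6JRj background, with 4 animals per condition for RNA sequencing. The tissue label is "cortex or hippocampus" for all 8 libraries, while the study describes neurons dissociated from the embryonic cortex. The labels also give a sequencing lane (A for KO1, KO4, WT1 and WT3, B for KO2, KO3, WT2 and WT4) and a strain code (BJ for KO1, KO2 and KO3, BK for KO4, WT2 and WT4, BO for WT1, BQ for WT3), whose meaning is not explained. BK alone holds both genotypes, so a fit with the code as a term compares only KO4 with WT2 and WT4.

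Ephrins are ligands that stay on the surface of the cell that makes them and act on Eph receptor tyrosine kinases of neighbouring cells. Ephrin-A ligands (Efna genes) are held by a glycosylphosphatidylinositol anchor and bind mainly EphA receptors, whereas ephrin-B ligands (Efnb genes) span the membrane, carry a cytoplasmic tail and bind mainly EphB receptors, with EphA4 binding members of both classes. Contact starts a signal in the receptor cell, called forward, and another in the ligand cell, called reverse, and in developing neurons both are known for guiding axons, shaping topographic maps and regulating branching and synapses.

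Total counts ranged from 31247078 to 67155004 per library. Nuak1 (ENSMUSG00000020032, chromosome 10, 84370900 to 84440668 in GRCm38) was at 1.96 to 2.72 CPM (counts per 1000000 counts of the library) in the KO group, against 51.6 to 82.6 for WT. KO1 and WT1 stood apart from the other 6 libraries on the first principal component, so results are also given without them. The component was computed on the 500 most variable tested genes and held 51.9% of their variance. Scores on it were −27.58 for KO1, −28.36 for WT1, 22.56 for WT3 and 0.07 to 10.79 for the remaining libraries. The summed CPM of marker lists in KO and WT was 4490.38 to 5227.68 and 4601.33 to 5086.41 for glutamatergic neurons, 94.04 to 166.84 and 111.85 to 144.91 for hippocampus, 208.17 to 346.28 and 189.68 to 307.36 for interneurons, 1328.66 to 1790.25 and 1123.89 to 1717.15 for astrocytes, 195.81 to 304.01 and 114.3 to 243.77 for cycling progenitors, and 458.87 to 552.43 and 445.95 to 534.75 for oligodendrocyte precursors. It was 2.27 to 23.88 and 2.54 to 10.24 for microglia, 1.51 to 2.32 and 1.62 to 2.18 for endothelial cells, and 19 to 37.95 and 8.92 to 49.7 for mural cells and fibroblasts, with the microglial marker Tmem119 and the endothelial marker Cldn5 under 0.1 CPM in every library. No marker was at 0 in all libraries. In these bulk samples fewer cells of a type and less RNA per cell cannot be told apart.

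In GRCm38, 3 of the ephrin-A genes lay side by side on chromosome 3, namely Efna1 (89271730 to 89280951), Efna3 (89313899 to 89322939) and Efna4 (89333393 to 89338028), within 66.3 kb and with gaps of 32.9 and 10.5 kb. Efna2 lay on chromosome 10 (80179482 to 80190010), the chromosome of the deleted gene, with 4.18 Mb from its end to the start of Nuak1. Efna5 lay on chromosome 17 (62602957 to 62881317), Efnb1 on the X chromosome (99136061 to 99149022), Efnb2 on chromosome 8 (8617235 to 8661242) and Efnb3 on chromosome 11 (69554092 to 69561150). Exons of Efna3 and Efna4 overlapped a gene model on the opposite strand, Gm15998 over 14.1% and 4731419I09Rik over 10.5% of their bases. In the same models, on NCBIM37, a second gene model also named Efna5 covered 59.9% of the exon bases of Efna5 on its own strand. That second identifier has no row in the count table, and whether the annotation used for counting held it was not tested. Whether counting used strand is not stated, so reads from the shared stretches cannot be assigned with certainty.

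RefSeq held the sequence upstream of 7 of the 8 ligands. The 250 bases before the start of 4 of them are shown in GRCm38.p6. Efna3 and Efna4 were chosen as close neighbours that were both lowest in KO1 and WT1, as Efna2 and Efnb1 also were. Efna5 and Efnb2 were chosen because they were not lowest in those libraries. All 4 are on the minus strand and written 5′ to 3′, with each CpG dinucleotide in capitals.
Efna3, chr3:89322940-89323189: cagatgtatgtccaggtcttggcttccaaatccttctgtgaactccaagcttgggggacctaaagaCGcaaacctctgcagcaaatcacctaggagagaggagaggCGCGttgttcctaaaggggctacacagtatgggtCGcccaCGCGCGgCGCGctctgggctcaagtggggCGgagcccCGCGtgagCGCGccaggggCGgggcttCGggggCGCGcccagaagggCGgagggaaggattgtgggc
Efna4, chr3:89338029-89338278: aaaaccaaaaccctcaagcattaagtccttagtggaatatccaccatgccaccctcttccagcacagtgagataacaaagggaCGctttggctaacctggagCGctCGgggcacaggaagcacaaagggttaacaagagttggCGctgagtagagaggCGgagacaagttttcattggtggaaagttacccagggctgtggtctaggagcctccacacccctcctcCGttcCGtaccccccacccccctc
Efna5, chr17:62881318-62881567: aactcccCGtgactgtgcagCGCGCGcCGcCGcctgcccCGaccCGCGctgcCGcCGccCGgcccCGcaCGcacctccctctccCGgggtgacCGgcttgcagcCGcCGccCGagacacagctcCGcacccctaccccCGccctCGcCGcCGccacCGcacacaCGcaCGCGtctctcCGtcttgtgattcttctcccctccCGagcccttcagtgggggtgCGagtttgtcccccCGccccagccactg
Efnb2, chr8:8661243-8661492: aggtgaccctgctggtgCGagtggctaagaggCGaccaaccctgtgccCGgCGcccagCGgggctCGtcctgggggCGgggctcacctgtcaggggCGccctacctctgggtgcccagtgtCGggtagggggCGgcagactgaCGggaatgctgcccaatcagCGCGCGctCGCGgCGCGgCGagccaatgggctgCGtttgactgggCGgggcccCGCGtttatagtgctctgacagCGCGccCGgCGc
RefSeq gives Efna3 a second start, whose window (not shown) held 31 CpG and 70.4% GC. The neighbours differed in base composition here. The Efna3 window shown held 19 CpG and 63.6% GC, and the Efna4 window held 7 CpG and 54.4% GC. The window of Efna5 held 32 CpG and that of Efnb2 held 27, against a median of 6 over all 32851 RefSeq windows of this length. The GC box (GGGCGG or CCGCCC, either strand, each holding 1 of the CpG counted) occurred 3 times upstream of Efna3, 4 times upstream of Efna5 and 3 times upstream of Efnb2. It did not occur in the Efna4 window, and 32.7% of all windows held at least 1. Such matches describe letters in the window and not sites bound by a factor.

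The cultures expressed mostly ephrin-B ligands, and bulk RNA does not show which cell types made them. Genes were compared in CPM per kb of exons, a scale that corrects for exon length but not for GC content of the transcript. The mean level over the 8 libraries was 120 for Efnb3, a ligand known as a midline barrier for corticospinal axons. It was 45.1 for Efnb2, a ligand also known for its part in vessel formation. Efna3 followed at 22.1 and Efnb1 at 9.7 CPM per kb. Lower levels were found for Efna5, known for mapping of visual and thalamocortical projections, at 5.1, Efna2 at 4.82 and Efna4 at 3.32 CPM per kb. Efna1, a ligand of endothelial and epithelial cells in many tissues, was at 0.288 CPM per kb.

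Efnb3 was above Efnb2 in 8 of 8 libraries, with a ratio of mean levels of 2.66, and Efnb2 above Efna3 in 8 of 8, with a ratio of 2.04. In neither case did the ranges of the 8 libraries overlap. Efna3 exceeded Efnb1 in 8 of 8 libraries and Efna2 exceeded Efna4 in 8 of 8, although both pairs had overlapping ranges. Efnb1 was above Efna5 in 6 of 8 libraries and Efna5 above Efna2 in 3 of 8, so over all 8 libraries these neighbours in the order did not differ beyond their spread. The exceptions for Efnb1 were KO1 and WT1, and in the other 6 libraries its level, 8.53 to 14.7 CPM per kb, did not overlap that of Efna5, 3.29 to 6.11 CPM per kb. Efna4 exceeded Efna1 in 8 of 8 libraries by a ratio of 11.5, without overlap. The order was the same with TMM-scaled library sizes or the longest transcript as length, and without KO1 and WT1 only Efna5 and Efna2 exchanged places.

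**Figure D1:**
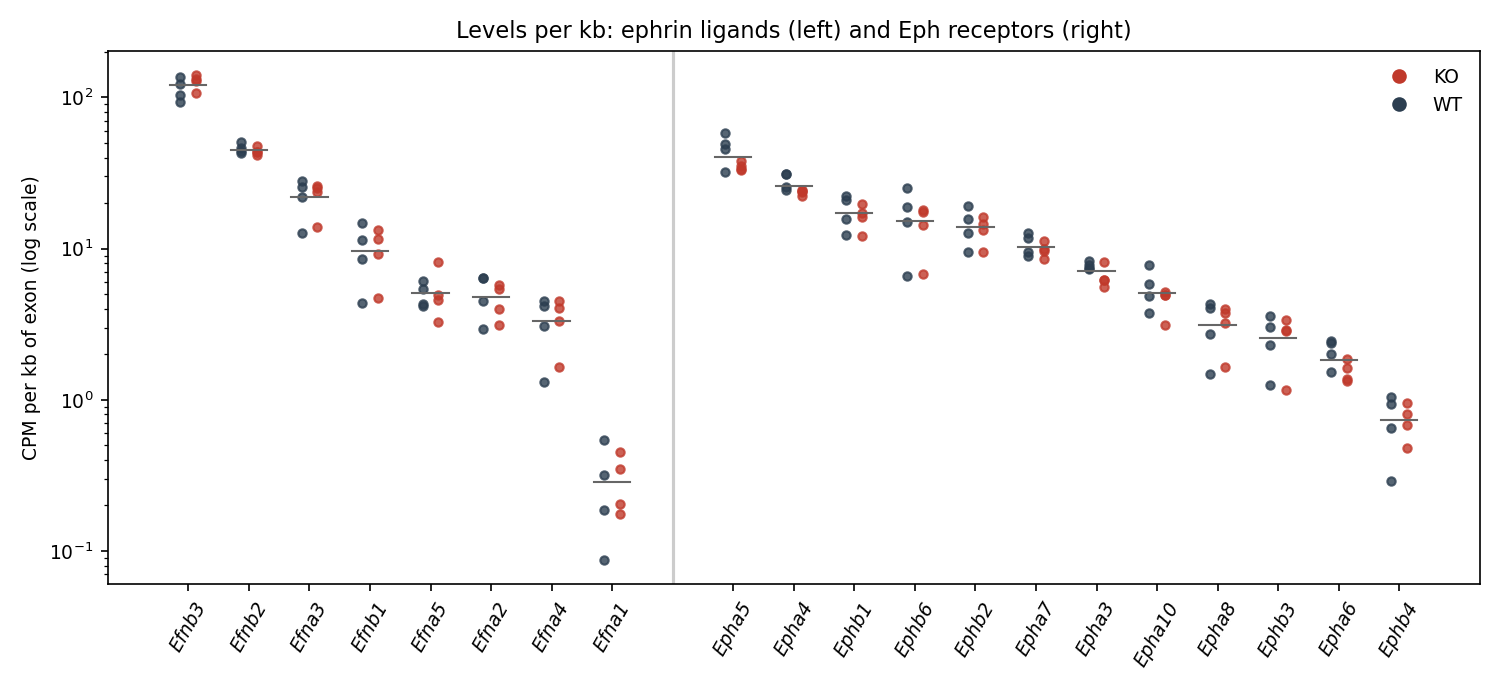
Level of each ephrin ligand in CPM per kb of exons, on a log axis, with 1 point per library and the mean of the 8 libraries marked. Efnb3 and Efnb2 lie above the highest library of every other ligand, and Efna1 lies below the lowest library of every other ligand.

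Ephrin-B genes made up 78.9% to 86.6% of the summed ligand level per kb in the 8 libraries, with 83.6% ± 1.33 for KO against 82.8% ± 3.18 for WT (SD, 4 libraries each). Efnb3 alone gave at least 52.1% of that sum in every library. Within the ephrin-A class Efna3 was the leading gene, with 51.3% to 65.7% of the class level per kb. Efnb3 was the leading ligand in every library of both genotypes, and the ranges of KO and WT overlapped for each of these shares.

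Efnb2 varied least of the 8 ligands between libraries. Efnb2 was at 227, 209, 199 and 208 CPM in KO1 to KO4 and 222, 244, 213 and 206 CPM in WT1 to WT4. The SD of its log2 CPM over the 8 libraries was 0.0953, at percentile 3.1 of all tested genes, whose median SD was 0.28. The groups overlapped and no library stood away from the rest.

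Efnb3, the most highly expressed ligand, was at 339, 424, 448 and 408 CPM in KO1 to KO4 and 298, 434, 328 and 388 CPM in WT1 to WT4. The lowest value of each genotype was that of its first library, and the groups overlapped. Efnb1, the X-linked ligand, was at 16.4, 31.9, 39.7 and 45.5 CPM in KO1 to KO4 and 15.1, 50.7, 29.4 and 39.2 CPM in WT1 to WT4. Both first libraries were far below the others here. Xist, the RNA that coats the inactive X chromosome, was at 1.82 CPM (KO3) and 2.76 CPM (WT4) against 2750 to 5010 CPM in the other 6 libraries, while Efnb1 in KO3 and WT4 lay within the range of the other libraries.

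Among the ephrin-A ligands, Efna3 was at 33.7, 57.4, 63.3 and 61.6 CPM in KO1 to KO4 and 30.9, 67.9, 62.1 and 53.1 CPM in WT1 to WT4. Its neighbour Efna4 was at 2.64, 5.29, 7.23 and 6.43 CPM in KO and 2.11, 7.22, 4.91 and 6.63 CPM in WT, in the same library order. Efna2, which with Efna5 is known for graded expression in the visual system, was at 6.7, 8.47, 11.5 and 12.3 CPM in KO and 6.3, 13.7, 13.7 and 9.61 CPM in WT. In all of them KO1 and WT1 were the lowest libraries and the genotypes overlapped.

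Efna5 ran the other way, at 32.9, 19.7, 18.4 and 13.2 CPM in KO1 to KO4 and 21.6, 17.3, 24.6 and 16.7 CPM in WT1 to WT4. KO1 was the highest library of all, and WT3 was above WT1. Efna1 was at 0.374, 0.636, 0.825 and 0.321 CPM in KO and 0.16, 0.342, 0.986 and 0.579 CPM in WT. These values rest on 5 to 47 counts per library, so differences between single libraries carry a large counting error.

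**Figure D2:**
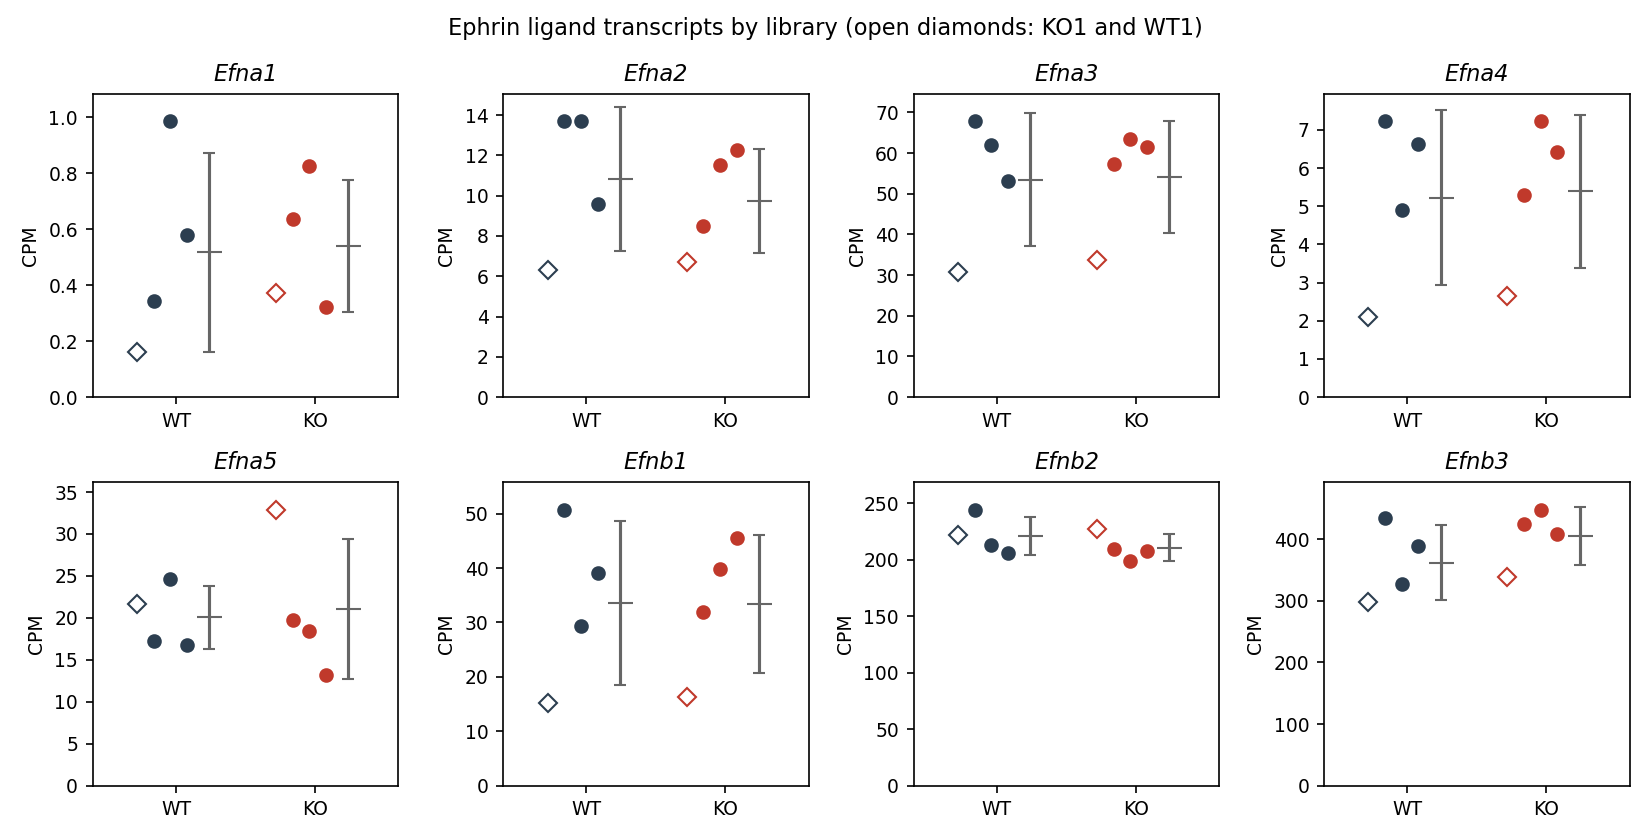
CPM of each ephrin ligand (vertical axes, each from 0) in the 4 WT and 4 KO libraries, 1 point per library, with the mean and SD beside each group. KO and WT overlap for each of the 8 ligands, and the open diamonds of KO1 and WT1 are the lowest points of Efna2, Efna3, Efna4 and Efnb1.

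The comparison of KO with WT asked whether loss of Nuak1 changed the level of these transcripts. None of the 8 ligands passed the Benjamini-Hochberg threshold of 0.05, against 0.0492% of the 16272 genes tested (8 genes). None reached the study's lower threshold, an unadjusted p under 0.05 with an absolute log2 fold change above 0.25, which 5.67% of tested genes did, and none had CPM ranges that did not overlap between genotypes, against 2.40% of tested genes. The log2 fold change (KO over WT) was below 0 for 4 of 8 ligands, against 46.6% of tested genes. The median log2 fold change was −0.01 for the ligands and 0.01 for all tested genes.

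Among the highly expressed members, Efnb3 averaged 405 ± 46.9 CPM for KO against 362 ± 60.8 CPM for WT (SD, 4 libraries each) and a log2 fold change of 0.13 with a 95% interval of −0.11 to 0.36. Efnb2 had means of 211 ± 11.9 and 221 ± 16.9 CPM and a log2 fold change of −0.11 (−0.29 to 0.07). Efna3 was closest to 0, with a log2 fold change of 0.0096 (−0.20 to 0.22). For these 3 ligands the intervals lay within 0.36 of 0 on the log2 scale, in both directions.

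Wider intervals were found for the other members. The log2 fold change was −0.15 (−0.45 to 0.15) for Efna2, −0.05 (−0.55 to 0.45) for Efna5 and −0.04 (−0.54 to 0.47) for Efnb1. It was 0.05 (−0.40 to 0.50) for Efna4 and 0.19 (−0.70 to 1.08) for Efna1. The interval for Efna1 was the widest of the 8. Adjusted p-values of edgeR's quasi-likelihood test ranged from 0.645 for Efnb2 to 0.982 for Efna3. Without KO1 and WT1 no ligand passed either, and the log2 fold changes lay between −0.24 (Efna2) and 0.12 (Efnb3).

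**Figure D3:**
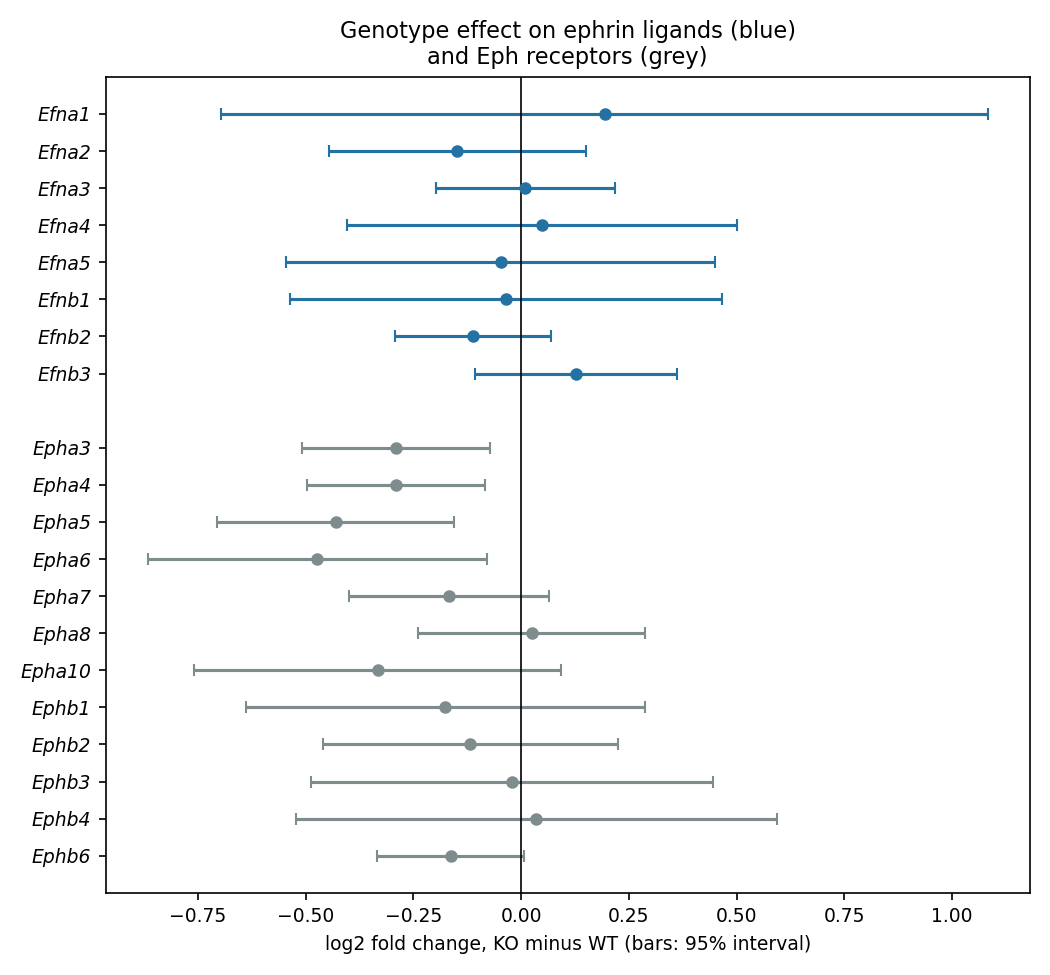
Log2 fold change of KO over WT for the 8 ephrin ligands and the 12 tested Eph receptors, with 95% intervals from the edgeR fit. The intervals of all 8 ligands include 0, and those of Epha3, Epha4, Epha5 and Epha6 lie below 0.

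Within the sequencing lanes, with 2 libraries per genotype in each, the fitted direction differed between lanes for several ligands. KO1 and WT1 are both in lane A, and these fits held no surrogate variable. Efnb1 had a log2 fold change of 0.47 (SE 0.602) in lane A and −0.40 (SE 0.17) in lane B. Its unadjusted p by edgeR was 0.474 in lane A and 0.0467 in lane B, where the adjusted p was 0.434. Efna1 had −0.76 (SE 0.872) in lane A and 0.67 (SE 0.38) in lane B. No ligand passed the adjusted threshold in either lane.

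The ligands varied between libraries in a way that did not follow genotype. KO1 and WT1 both lay below each of the other 6 libraries for 4 of 8 ligands (Efna2, Efna3, Efna4 and Efnb1), against 28.7% of tested genes, and both lay above the other 6 for none of the ligands, against 20.6%. The mean log2 CPM of KO1 and WT1 minus that of the other 6 libraries was −1.39 for Efna4, −1.30 for Efnb1, −1.15 for Efna1, −0.91 for Efna3 and −0.80 for Efna2. It was −0.34 for Efnb3, 0.08 for Efnb2 and 0.57 for Efna5. The median of this difference was −0.86 over the ligands and −0.02 over all tested genes. As KO1 and WT1 were singled out from the same counts, these values are a description.

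Across genes this difference moved with the GC content of the coding transcript. The median difference was 0.37 among tested genes in the lowest decile of GC (33.1% to 42.0%) and −1.11 in the highest (58.3% to 75.7%), where 85.6% of genes had both libraries below the other 6. GC was 54.2% to 58.5% for Efna1, Efna2, Efna3, Efna4, Efnb1 and Efnb3, against 44.8% for Efna5 and 47.9% for Efnb2. The ligands with GC-rich transcripts were thus those that were lower on average in KO1 and WT1. Efnb3 departed less from the other libraries, at −0.34, than the median of its GC decile, at −0.81. Efna1 and Efna5 lay just outside the central 80% of their deciles, with −1.15 against a lower bound of −1.11 and 0.57 against an upper bound of 0.47.

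With an offset for GC content in each library, an alternative chosen after the data were seen, the difference became −0.38 for Efnb1, −0.22 for Efna3, −0.61 for Efna4, −0.69 for Efna1 and 0.15 for Efna2. It was 0.33 for Efna5, −0.02 for Efnb2 and 0.52 for Efnb3. After the offset KO1 and WT1 were both below the other 6 libraries for 2 of 8 ligands, the neighbours Efna3 and Efna4, against 17.1% of 13636 genes with a GC value, and both above for 1, Efnb3, against 15.6%.

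**Figure D4:**
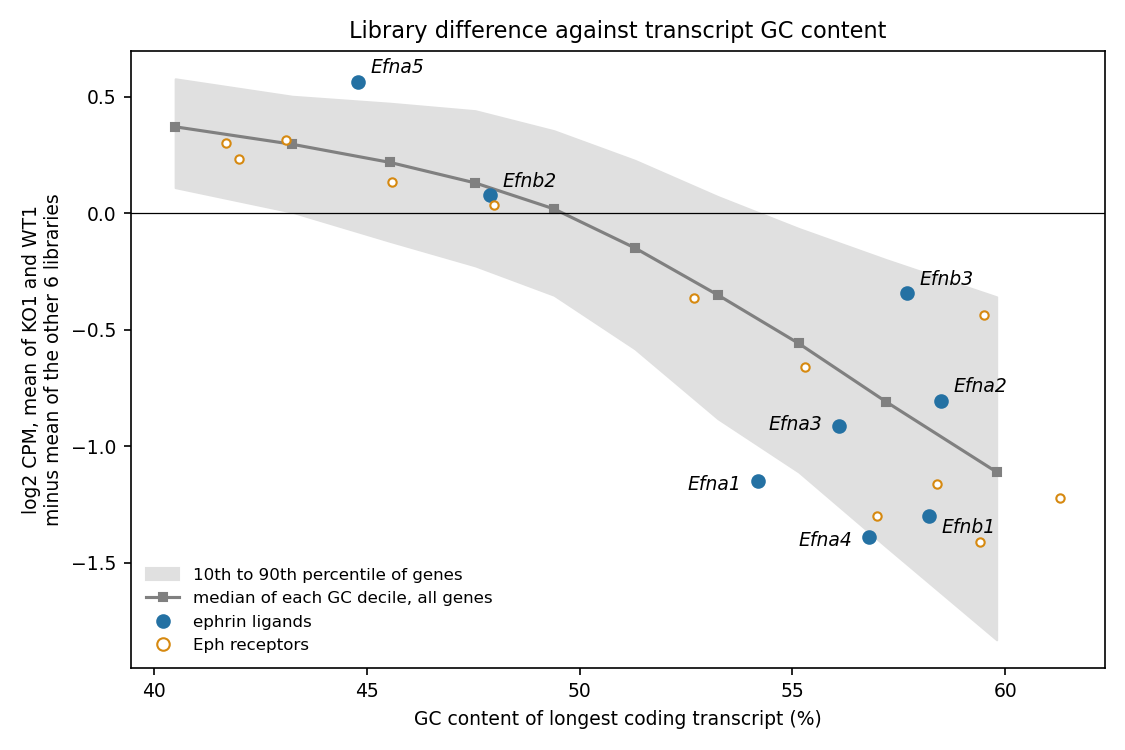
Mean log2 CPM of KO1 and WT1 minus that of the other 6 libraries (vertical axis) against GC content of the coding transcript in percent (horizontal axis), for the 8 ligands as points over the median and the 10th to 90th percentiles of tested genes by GC decile. The line falls from 0.37 to −1.11, the 6 GC-rich ligands lie below 0, and Efna5 and Efnb2 lie above 0.

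The genes whose profile over the 8 libraries was most like that of each ligand, by the root mean square difference of centred log2 CPM, were Slc27a4 for Efna3 (0.0528), Adcy6 for Efnb3 (0.0462), Ptpro for Efnb2 (0.0503), Gpr172b for Efna2 (0.0796), Rgma for Efnb1 (0.104), Lrp5 for Efna4 (0.111), Wls for Efna5 (0.113) and Lgals1 for Efna1 (0.161). KO1 and WT1 differed from the other 6 libraries by −0.94 in Slc27a4, −1.23 in Rgma and 0.67 in Wls, in the direction of the matched ligand, as the choice by likeness implies. GC was 56.8% in Slc27a4, 60.8% in Rgma and 41.9% in Wls.

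Of the 14 Eph receptors, the partners of these ligands, 12 were tested, and 0 passed the Benjamini-Hochberg threshold in edgeR, while 4 had an unadjusted p under 0.05, as did 10.5% of all tested genes (1708 of 16272). Epha1 and Epha2 were too low to be tested. The log2 fold change was below 0 for 10 of the 12, against 46.6% of all tested genes. The median was −0.17, against 0.01 for all tested genes. The 4 receptors, all lower in KO, also reached the study's lower threshold, which 3.51% of tested genes did in that direction. Without KO1 and WT1, only Epha3 had an unadjusted p under 0.05, as did 671 of 16579 tested genes, and the log2 fold changes were −0.39 for Epha3, −0.25 for Epha4, −0.35 for Epha5 and −0.33 for Epha6. At that level were 0 receptors and 96 of 16238 tested genes in lane A alone, and 5 receptors and 1885 of 16835 in lane B alone. The number of receptors was 4 with lane as a term (478 of 16272 genes) and 4 with the GC offset (656 of 13636 genes). It is not given for the fit with strain code, where only KO4 is compared with WT2 and WT4. Leaving out each library in turn gave 3 to 6 receptors, with 1043 to 2601 genes at that level. Epha3, Epha4, Epha5 and Epha6 encode EphA receptors, and EphA4 is known for repelling growing axons.

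Epha5, the receptor with the highest level at 40.6 CPM per kb, was at 379, 338, 331 and 353 CPM in KO1 to KO4 and 581, 495, 322 and 455 CPM in WT1 to WT4. WT3 was below every KO library, so the groups overlapped. Its log2 fold change was −0.43 (SE 0.123) with an adjusted p of 0.345 by edgeR, and DESeq2 gave an adjusted p of 0.0441.

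Epha4 was at 154, 152, 142 and 150 CPM in KO and 197, 197, 162 and 155 CPM in WT, without overlap. Its log2 fold change was −0.29 (SE 0.0928), with an adjusted p of 0.365. The groups overlapped for Epha3, at −0.29 (SE 0.0974) with an adjusted p of 0.377, and for Epha6, at −0.47 (SE 0.176) with an adjusted p of 0.413. The summed level of the EphA receptors was 80.0 to 87.6 CPM per kb in KO and 89.4 to 118 in WT, whereas the summed ephrin-A level was 27.0 to 41.0 in KO and 22.4 to 43.3 in WT. The sums are given as a description, and the difference between receptors and ligands was not tested.

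Genes that carry ephrin signals inside the cell showed no call after adjustment either. Among 20 genes of forward signalling, 10 had higher and 10 lower fitted values in KO, where 46.6% of all tested genes had lower ones. Of the 20, 0 passed the adjusted threshold and 3 had an unadjusted p under 0.05, against 10.5% of all tested genes. Kalrn, a guanine nucleotide exchange factor, was estimated at −0.29 on the log2 scale, with an SE of 0.0621 and an adjusted p of 0.225 by edgeR, and did not pass. Chn1, a GTPase-activating protein for Rac that acts after EphA4, spanned 72.0 to 77.9 CPM for KO against 61.0 to 66.5 for WT, without overlap, with a log2 fold change of 0.18 (adjusted p = 0.380). Rock2, a kinase that acts on the actomyosin cytoskeleton, had a log2 fold change of −0.16 (adjusted p = 0.390), and the highest level per kb was that of the kinase Cdk5, at 50.9 CPM per kb.

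Of 14 genes of reverse signalling, 6 had higher and 8 lower fitted values, and 0 passed the adjusted threshold or an unadjusted p under 0.05. Of all tested genes, 46.6% had lower fitted values, 10.5% an unadjusted p under 0.05 and 0.0492% passed the adjusted threshold. The highest level per kb was that of Ntrk2, the BDNF receptor, at 71.4 CPM per kb. Of 7 genes for shedding and cleavage of ephrins and their receptors, 6 were tested (not Rhbdl2), 2 with higher and 4 with lower fitted values, and 0 passed the adjusted threshold, with 1 at an unadjusted p under 0.05, against 10.5% of all tested genes. The metalloprotease Adam10, which cleaves ephrin-A ligands, had the highest level at 49.2 CPM per kb.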

How the data were processed

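Poly-A RNA of 4 KO and 4 WT neuron cultures was sequenced. The authors deposited raw counts per Ensembl gene and library, not pooled. They trimmed reads with Cutadapt 1.10, removed rRNA reads, aligned with STAR 2.5.3a to mm10 and counted unique reads with HTSeq-count 0.6.1p1 in union mode. Reads shared by overlapping genes are lost in that mode. The submitters' processing notes also list bcl2fastq 2.17.1.14 and Bowtie2 2.2.8. Read layout differs between the labels and the methods, and strand use is not stated. The authors tested with DESeq2, surrogate variables and hypothesis weighting, the last not used here.

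Totals were 31247078 to 67155004 (median 39224504). Precision is limited by counting error at low counts and by 4 libraries per group. In the main fit, p-values weigh the difference between genotypes against the spread left between these libraries after the surrogate variable. Of 32726 rows, 23260 matched a symbol and exon length (GENCODE models on NCBIM37, lengths and GC only) and 18832 a GRCm38 position (RefSeq, build of the files). No count column was left unmapped. Genes were filtered with filterByExpr, scaled by TMM and tested in R 4.3.3 with edgeR 4.0.16 (robust quasi-likelihood F test, Benjamini-Hochberg threshold 0.05) with 1 surrogate variable (sva 3.50.0). Intervals are 95%. CPM is counts per 1000000 counts of the library total, and log2 CPM outside the fit adds 0.5 counts. The fitting steps were run on simulated counts with larger fold changes, less spread between libraries and no KO1 and WT1 pattern. That run does not show how well changes as small as those of the ligands are found. Alternatives included DESeq2 1.42.0.

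Members and lists were chosen with earlier results of these data known. Genes were named by rule: the 8 ligands, Nuak1, Xist, in each pathway list up to 5 genes with the smallest unadjusted p under 0.05 and the gene with the highest level per kb, and the nearest profile of each ligand. A gene that the rule names is not reported here. Genes without a value for one step (position, GC) were left out of it.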

Additional observations from a re-analysis of the deposited data

Results flagged for a closer look

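Of 40 groups of 4 libraries examined for the ligands and the tested Eph receptors, 1 had a library far from the others, where chance gives about 1 in 20, or 2.0. This was Epha10, an ephrin-A receptor, at 22.5 CPM in KO1 against 35.6 to 37.1 CPM in the other KO libraries, a gap of 0.9 of the group's range. No ligand had such a library.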

How the results depend on the processing

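None of the 8 ligands passed the adjusted threshold under any of the 21 alternatives. Efna1 was removed by the stricter filter and had no adjusted p in DESeq2. Of 167 refitted ligand fold changes, 131 kept their direction and 36 turned it, and the cause was not tested. Fits with lane, strain code or replicate number as a term held no surrogate variable. Nor did those of single lanes, without KO1 and WT1 or with the GC offset, so they differ from the main fit in that respect too. Efnb2 kept its direction in all 21 (−0.21 to −0.02). An unadjusted p under 0.05 was found for Efnb1 in lane B and without WT3, and for Efnb3 without WT2. At that level were 1885 of 16835 tested genes in lane B, 2601 of 16425 without WT3 and 1472 of 16441 without WT2. Turned log2 fold changes were, without a surrogate variable, −0.025 (Efna3) and 0.034 (Efna5). With 2 they were −0.028 (Efna3), −0.095 (Efna4) and 0.11 (Efna5). With lane as a term they were −0.026 (Efna1), −0.020 (Efna3), 0.042 (Efna5) and 0.036 (Efnb1). With strain code, where only BK holds both genotypes, they were −0.49 (Efna1), 0.048 (Efna2), −0.13 (Efna4) and −0.029 (Efnb3). Lane A alone gave −0.76 (Efna1) and 0.47 (Efnb1), lane B alone −0.077 (Efna3), −0.21 (Efna4) and 0.096 (Efna5). Without KO1 and WT1 they were −0.098 (Efna1), −0.044 (Efna3) and −0.021 (Efna4), and with the GC offset −0.075 (Efna3) and −0.037 (Efna4). Leaving out each library in turn gave −0.0063 to 0.54 (Efna1), −0.036 to 0.11 (Efna3), −0.13 to 0.19 (Efna4), −0.25 to 0.15 (Efna5) and −0.22 to 0.17 (Efnb1).

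The number of genes past the threshold, 8, became 4 without a surrogate variable, 17 with 2, 4 with lane, 49 without a filter, 169 in DESeq2, 0 in lane A alone (96 at an unadjusted p under 0.05), 99 in lane B alone, 3 without KO1 and WT1, 2 with the GC offset, and, leaving out single libraries, 3 (KO3 or WT2), 4 (KO1, KO2 or WT1) and 114 (WT3). Eph receptors past it numbered 1 in DESeq2 (Epha5), 2 in lane B alone and 0 to 2 leaving out each library, with 2 (Epha5 and Ephb1) without WT3. No count is given for the fit with strain code, where only KO4 is compared with WT2 and WT4. With the replicate number as a block, 3 genes passed and Efna3 had −0.0062. Same-numbered libraries correlated at 0.8, 0.012, 0.249 and 0.002, and only KO1 and WT1 correlated best with their own number. These correlations hold the KO1 and WT1 pattern, so they cannot decide whether the numbers pair the other libraries. The level of Efnb2 was 49.9 CPM per kb by its longest transcript. Efna1 rests on 5 to 47 counts per library.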
